A study of Mus musculus with 16 samples.

Results

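Secreted inflammatory and anti-inflammatory cytokines were examined in an RNA-immunoprecipitation and sequencing (RIP-seq) experiment on CPEB4 in mouse macrophages. The 10 mRNAs were chosen by name, as the rows whose gene symbol is Tnf, Il6, Il10, Il12a, Il12b, Il23a, Il27, Lif, Csf1 or Csf3, out of 14925 genes with a 3′-UTR row. For a gene with several annotated 3′-UTRs, the region with the most reads over all libraries was used. Bone marrow-derived macrophages (BMDMs) from adult mice of the strain C57BL/6J 129 were either wild type (WT) or CPEB4 KO (from mice that lack the gene in all cells). The sample titles begin with 76 for the WT and 73 for the KO, and do not say what these numbers stand for. Cells of both genotypes had been differentiated with L-cell conditioned medium, which supplies M-CSF, the protein encoded by Csf1. They were left untreated or received 10 ng/ml lipopolysaccharide (LPS, a component of the outer membrane of Gram-negative bacteria) for 9 h. Each genotype and treatment gave a library of the RNA pulled down with an anti-CPEB4 antibody (RIP) and a library of the whole lysate (Input). The 16 samples are lanes 7 and 8 of these 8 libraries, and the deposited counts add both lanes. With 1 library in each group, no difference below has a replicate check.

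Macrophages sense LPS through TLR4 and answer with secreted cytokines, which are made in a burst and then shut off. Many of their mRNAs carry AU-rich elements (AREs), repeats of AUUUA in the 3′-UTR, at which proteins such as tristetraprolin recruit the enzymes that shorten the poly(A) tail. CPEB4 binds cytoplasmic polyadenylation elements (CPEs), U-rich motifs near the polyadenylation signal, and can promote lengthening of the tail. TNF and IL-6 drive inflammation, whereas IL-10 restrains it. IL-12 and IL-23 share the p40 subunit encoded by Il12b, paired with p35 (Il12a) in IL-12 and with p19 (Il23a) in IL-23. Il27 encodes p28, which pairs with EBI3 to form IL-27. LIF is a cytokine of the IL-6 family, M-CSF (Csf1) maintains macrophages, and G-CSF (Csf3) promotes the production of neutrophils.

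The libraries held from 467696 to 2492300 reads in 3′-UTRs. These made up 46.4% to 51.1% of the library total in the Inputs, 48.9% and 70.1% in the WT RIPs (untreated and LPS) and 27.3% and 31.8% in the KO RIPs. The 3′-UTR of Cpeb4 itself, the targeted gene, had 121 (WT) and 69 (KO) Input reads untreated and 258 and 79 with LPS, and 1392 and 120 RIP reads untreated and 1920 and 320 with LPS. As CPM, the usual count scaled to sequencing depth and here to the 3′-UTR reads of a library, it was lower in each KO library than in its WT partner, and whether it lies in the deleted part of the gene is not given in the sources used here. All 8 macrophage markers examined, such as Adgre1 and Cd68, had over 3 reads in each library (summed level 1764 to 4482 CPM). Of 20 markers of other cell types, 12 had a 3′-UTR row, and their summed level was 3.23 to 12.8 CPM. Cd4 in the untreated KO Input was the only one of these with over 3 reads in any library.

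AUUUA was found in each of the 10 3′-UTRs, with 4 copies in Csf1 and 8 in Tnf at the extremes. Motifs were searched on the strand of the mRNA only, in the RefSeq sequence of GRCm38.p6, and copies were allowed to overlap. At least 2 copies were present in 10 of 10 members and in 45.9% of all 14925 regions. Among the 4131 regions of 250 to 800 bases, the size range of 8 of the members, 21.2% had at least 2 copies. The nonamer UUAUUUAUU was found in Tnf, Il12a, Il23a, Il27 and Lif (5 of 10 members, against 7.05% of all regions). The densest 30-base window of AUUUA motifs is shown for 6 members to let the ARE of an abundant inflammatory cytokine be compared with that of the others. Capitals mark the motif.
Tnf (chr17:35199679-35199708, - strand): auuAUUUAuuAUUUAUUUAuuAUUUAUUUA
Il12b (chr11:44413473-44413502, + strand): AUUUAaguaAUUUAuguAUUUAuuaAUUUA
Il27 (chr7:126589088-126589117, - strand): agauAUUUAuuucuuggauAUUUAUUUAuu
Csf3 (chr11:98702986-98703015, + strand): uaguuuAUUUAucucuAUUUAauAUUUAug
Il6 (chr5:30019681-30019710, + strand): auuauuuuuaAUUUAuugauaAUUUAaaua
Il10 (chr1:131024382-131024411, + strand): accucucuccgaaauAUUUAuuaccucuga
The Tnf window held 5 motifs, some of them overlapping, and the Il12b window held 4 set apart by short spacers. The Il10 window held 1, since the 6 copies of Il10 are scattered along its 3′-UTR.

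CPEs were less evenly spread. The letters counted as a CPE were UUUUAU or UUUUAAU or UUUUAAAU or UUUUACU or UUUUCAU or UUUUAAGU or UUUUGU. At least 1 was found in 7 of 10 members and in 73.4% of all regions, so the members were close to the background. Tnf, Il10 and Il27 had none, Csf3 and Il23a had 1, Il12b had 2, Csf1 had 3, Il6 and Il12a had 4, and Lif had 12 in a 3′-UTR of 3180 bases. The CPE prediction deposited beside the counts, which also weighs the distance to the polyadenylation signal, was present for Il6, Lif and Csf1 (3 of 10 members, against 31.8% of all regions). The CPE nearest the end of the 3′-UTR is shown for Il6 and Csf1, which carry that prediction, and for Il12a and Csf3, which do not. Capitals mark the CPE and, in Csf1 and Il12a, also the polyadenylation signal AAUAAA that follows it.
Il6 (chr5:30019909-30019938, + strand): uuugugauguauUUUUAUaauguuuagacu
Csf1 (chr3:107741063-107741092, - strand): UUUUAUauuuaauAAUAAAagaagugcaca
Il12a (chr3:68698514-68698543, + strand): UUUUGUgguucuAAUAAAguaauguuauca
Csf3 (chr11:98703083-98703112, + strand): uccacuuccgagUUUUGUucuccugcuuag
A match is a description of these letters and was not tested as a binding site.

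**Figure D1:**
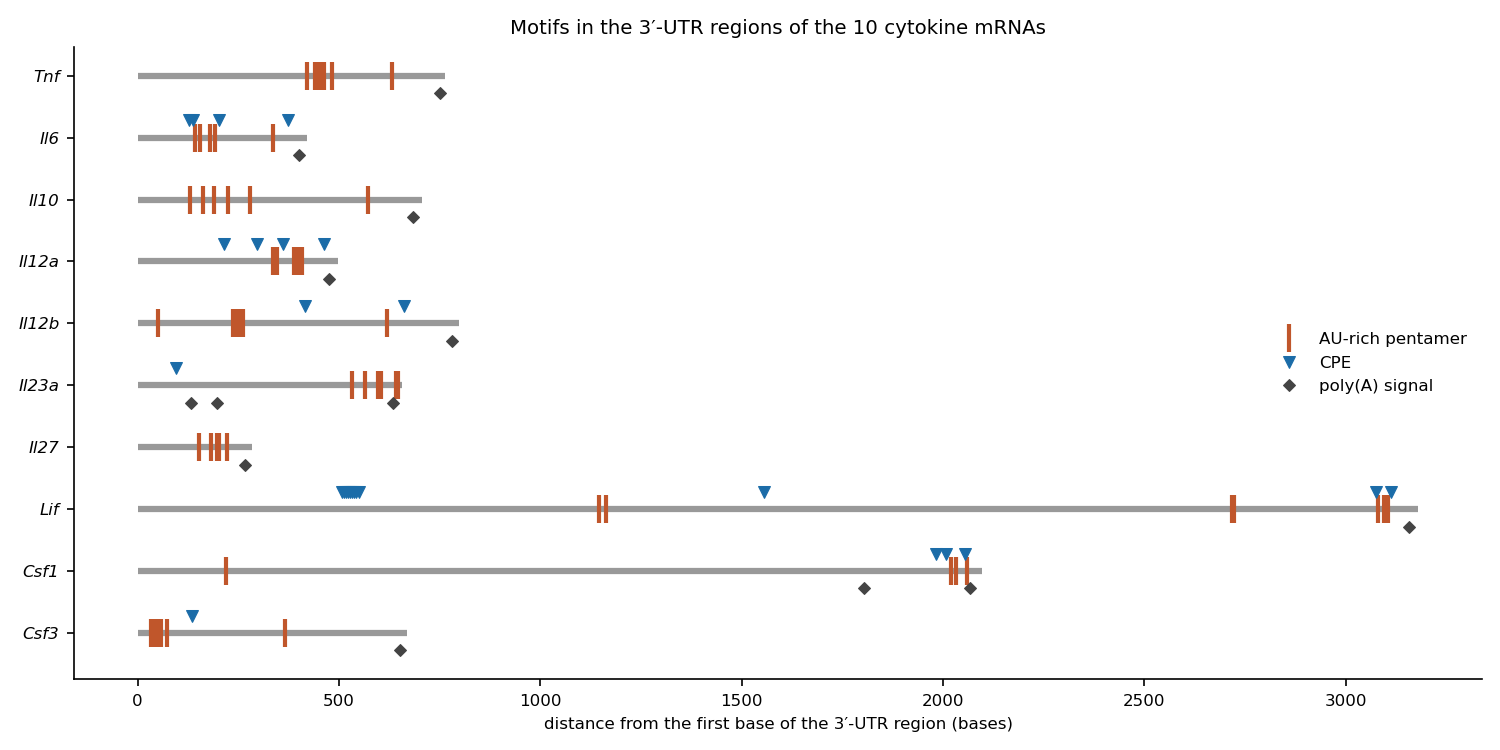
Positions of AUUUA (the AU-rich pentamer), CPE motifs and polyadenylation signals along the 3′-UTR region of each of the 10 mRNAs, as distance in bases from the first base of the region, with grey bars drawn to the length of the region. AUUUA is present in all 10 regions, CPEs are absent from Tnf, Il10 and Il27, and the regions of Lif and Csf1 are over 800 bases long.

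In untreated macrophages most of these mRNAs were at or near 0 in the Input. Il6, Il12a, Il12b, Il23a, Lif and Csf3 had 0 reads in both untreated Inputs. That allows up to 4.13 CPM in the WT and 2.90 CPM in the KO (95% Wilson limit, counting error only). Tnf was the one member with over 6 reads, at 44 in WT (47.4 CPM, 95% Wilson interval 35.3 to 63.6) and 48 in KO cells (36.2 CPM, 27.3 to 48.0). Il10 had 1 and 6 reads (WT, KO), Il27 had 3 and 6, and Csf1 had 6 and 4. The summed level of the 10 members was 58.1 CPM (44.6 to 75.8) in WT and 48.3 CPM (37.8 to 61.6) in KO cells, intervals that overlap.

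After LPS the members together reached 783 CPM (744 to 823) in the WT Input and 455 CPM (422 to 491) in the KO Input. Tnf had the highest level per length of 3′-UTR, at 571 CPM per kb (WT) and 405 CPM per kb (KO). In the WT it was followed by Il12b (259 CPM per kb), Il27 (179) and Csf3 (82.7), and the counting intervals of these neighbours did not overlap. Below them came Il6 (13.8 CPM per kb), Il10 (11.9), Csf1 (5.78), Il12a (2.12) and Lif (1.99), where each neighbour's interval overlapped the next. In the KO, Il27 (140 CPM per kb) stood above Il12b (73.5), and the intervals of the 2 did not overlap. Csf3 followed at 22.9 CPM per kb, with an interval that overlapped that of Il10 at 20.7. The shared p40 subunit was thus far above both of its partners in the Inputs, since Il12a had 2 (WT) and 1 (KO) reads and Il23a had 0 in each.

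**Figure D2:**
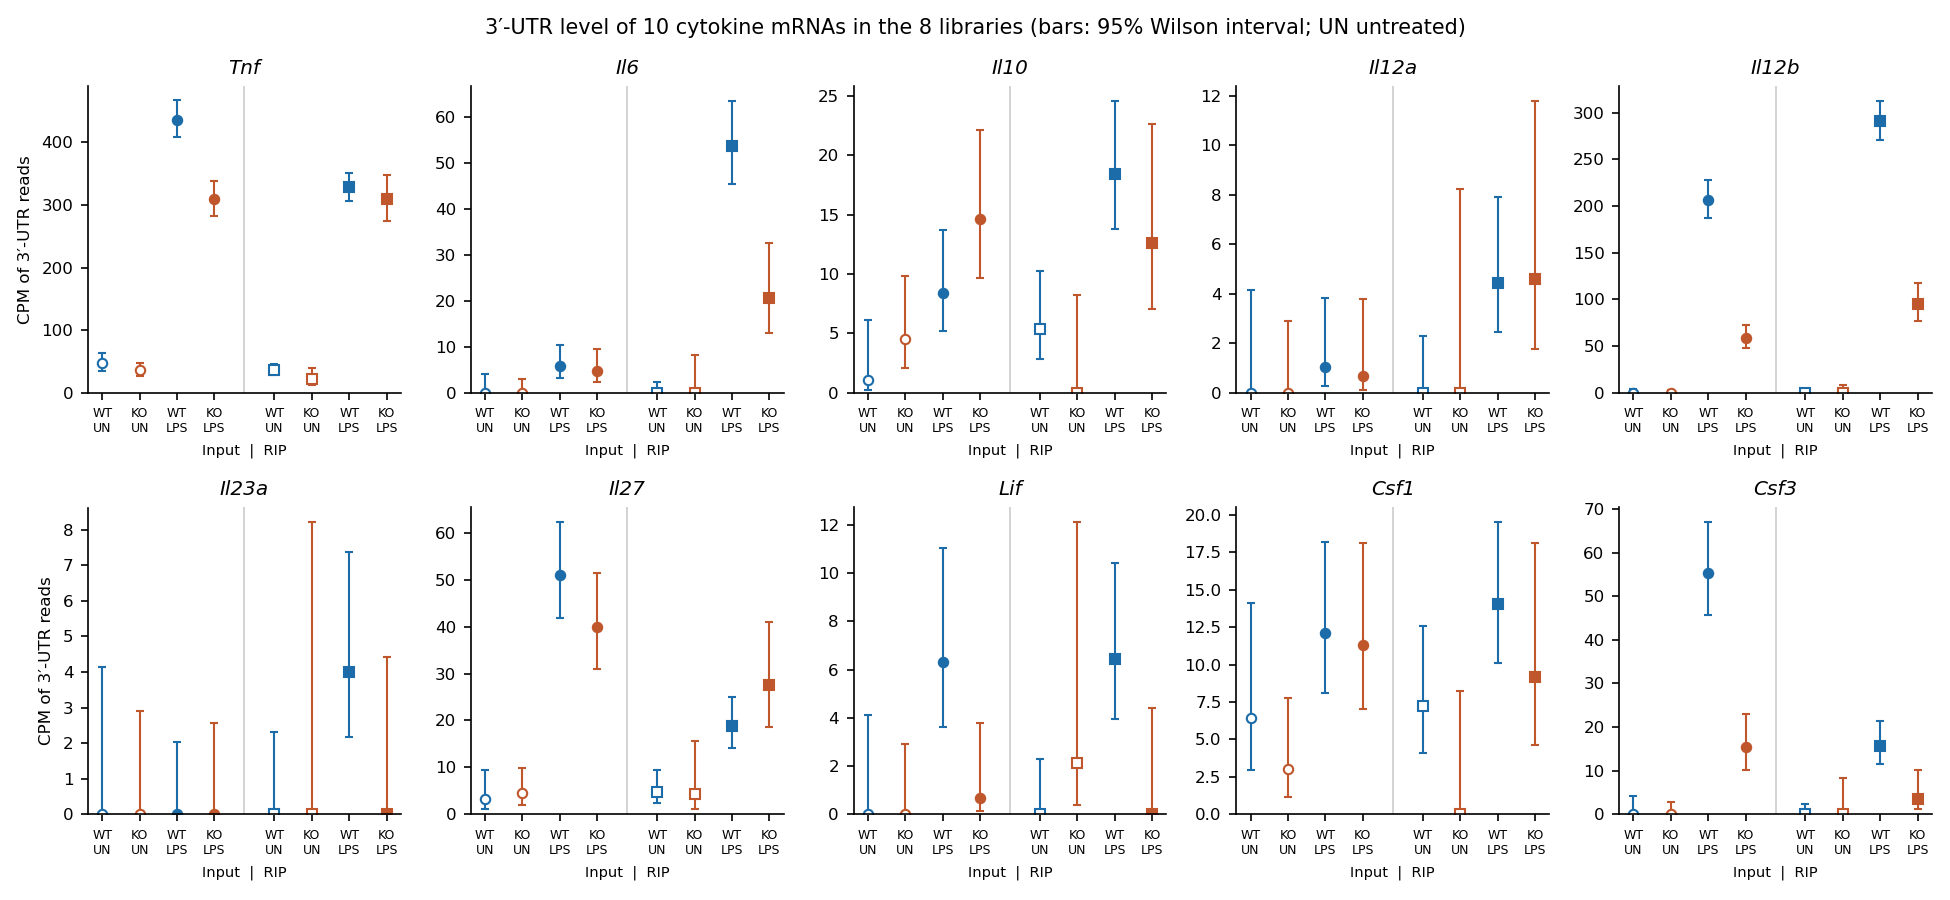
Level of the 10 mRNAs in the 8 libraries, in CPM of 3′-UTR reads, with 1 point per library (circles Input, squares RIP, blue WT, orange KO, open untreated, filled LPS) and bars for the 95% Wilson interval, which covers counting error only; each panel has its own axis from 0. Tnf, Il12b, Il27 and Csf3 are the members with clear Input levels after LPS, and Il6 stands out by a RIP level (53.8 CPM in the WT) far above its Input level (5.80 CPM).

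The first comparison asked how LPS changed the level of each mRNA in the Inputs. Differences are log2 ratios after adding 1 read to each library and scaling to the 3′-UTR reads. A member was called where the ratio passed 2-fold and its 95% counting interval left out 0, for regions whose pair of libraries held 10 or more reads. Tnf had 44 reads untreated and 828 with LPS in WT Inputs, and 48 and 465 in KO Inputs. Its level rose by 3.17 on the log2 scale in WT cells (95% interval 2.74 to 3.61) and by 3.07 in KO cells (2.64 to 3.49), about 9.02-fold and 8.39-fold. In the WT Il12b went from 0 to 391 reads and in the KO from 0 to 88. That is at least 63.8-fold and at least 25.9-fold higher against a floor of 3 reads. Folds given as at least set a library with 0 reads to 3 reads and leave out the counting error of the other library. Csf3 went from 0 to 105 reads in WT and from 0 to 23 in KO Inputs, at least 17.1-fold and at least 6.77-fold higher. Il27 went from 3 to 97 reads in WT Inputs (log2 ratio 3.58, 2.14 to 5.03) and from 6 to 60 in KO Inputs (2.94, 1.81 to 4.07). All 4 were called higher in both genotypes.

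The region of Il27 shares 103 of its 285 bases with the 3′ end of Apobr on the opposite strand, and without strand information the reads of the pair cannot be told apart. The Apobr region itself had 60 to 109 Input reads in every condition, with 90 and 74 untreated (WT, KO) against 109 and 60 with LPS. In the RIPs it had 79 and 28 reads untreated (WT, KO) and 70 and 37 with LPS, all without scaling to depth. Il27 had 3 and 6 reads in the untreated Inputs. The part of Apobr reads in the counts of Il27 was not tested.

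The low members moved less clearly. Il10 had 1 read untreated and 16 with LPS in WT Inputs (log2 ratio 2.06, -0.06 to 4.17) and 6 and 22 in KO Inputs (1.54, 0.32 to 2.76), so that it was called in the KO alone on the 3′-UTR totals. On the library totals (2.13), with TMM or median-of-ratios scaling, with 0.1 reads added and with the chi-square alternative, Il10 was called in the WT too. Csf1 had 6 and 23 reads in WT (0.75, -0.47 to 1.96) and 4 and 17 in KO Inputs (1.67, 0.24 to 3.10), and was likewise called in the KO alone. Il6 had 0 reads untreated in either genotype and 11 (WT) and 7 (KO) with LPS. Lif had 0 untreated and 12 (WT) and 1 (KO) with LPS. The WT change minus the KO change was 0.52 for Il10 (-1.92 to 2.96) and -0.92 for Csf1 (-2.80 to 0.96), both within counting error of 0.

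Counted over the members, 4 of 10 were called higher and 0 lower in the WT Inputs (8 had 10 reads in the pair), where 11.7% of 8163 genes were called higher and 15.4% lower. In the KO Inputs 6 of 10 were called higher and 0 lower (6 had 10 reads), where 12.1% of 8250 genes were called higher and 18.5% lower. Members that reached 10 reads only through their LPS library had to differ, so these counts describe the members and are no support for a shared direction. The difference between the LPS change of the WT and that of the KO had enough reads for 6 members and was called for 0, where 2.64% of 7867 genes were called higher in the WT and 1.44% lower. It was 0.10 for Tnf (-0.50 to 0.71), and for Il12b 1.29 with an interval from -2.72 to 5.30, as wide because both untreated Inputs had 0 reads.

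**Figure D3:**
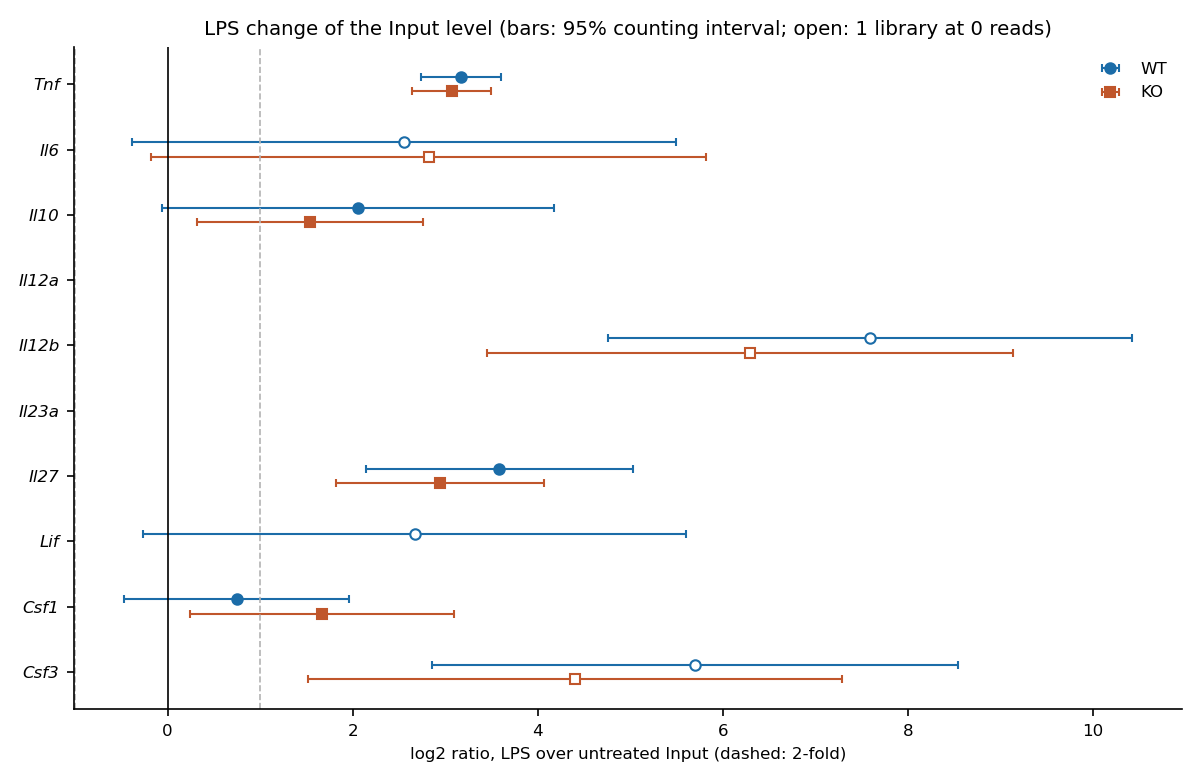
Log2 ratio of the Input level, LPS over untreated, for each member in the WT (blue circles) and the KO (orange squares), with 95% counting intervals; open symbols mark pairs in which 1 library had 0 reads, so that the point depends on the read added, and dashed lines mark 2-fold. The Tnf points of the genotypes lie at 3.17 and 3.07 with overlapping intervals, and Il12a and Il23a have no point because neither library of a pair had over 3 reads.

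The LPS change of the RIPs was compared in the same way. In the WT RIPs 8 of 10 members were called higher and 0 lower with LPS, where 10.6% of 8901 genes were called higher and 19.7% lower, and Il23a and Csf1 were the members not called. In the KO RIPs, whose untreated library had the fewest reads, 4 of 10 were called higher and 0 lower, where 11.0% of 7227 genes were called higher and 18.0% lower. The 4 were Tnf, Il6, Il12b and Il27. As in the Inputs, members with 0 untreated reads, among them Il6, Il12a, Il12b, Lif and Csf3 in the WT, passed the read minimum only through the LPS library and had to differ, so these counts are a description. Il6 went from 0 to 134 reads in the WT RIPs (at least 29.9-fold) and from 0 to 18 in the KO RIPs (at least 3.22-fold). Lif went from 0 to 16 reads (at least 3.56-fold) and Il12a from 0 to 11 (at least 2.45-fold) in the WT RIPs. These comparisons use the same RIP libraries as those that follow.

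The second comparison set each RIP against its own Input, to ask which mRNAs were recovered beyond their level in the lysate. In LPS-treated WT cells the members split, with Il6 and Il10 above their Input and Il27 and Csf3 below it. Il6, whose CPE nearest the 3′ end is shown above, had 11 Input reads and 134 RIP reads, a level 8.56-fold higher in the RIP (log2 ratio 3.10, 2.25 to 3.95). Among the 8767 genes with 10 reads in this pair, 98.3% had a lower ratio. Il10, whose 3′-UTR held no CPE, had 16 Input reads and 46 RIP reads (log2 ratio 1.07, 0.27 to 1.87). Il23a had 0 Input reads and 10 RIP reads, at least 2.54-fold higher. These 3 were called higher, but Il23a reached 10 reads only through the RIP, so its direction was fixed, and it was not called with 0.1 reads added.

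The abundant members were not recovered to the same degree. Tnf had 828 Input reads and 818 RIP reads, a log2 ratio of -0.41 (-0.55 to -0.27). Il12b had 391 and 725 reads, a log2 ratio of 0.50 (0.32 to 0.67), below 2-fold. Csf3 had 105 Input reads and 39 RIP reads and was called lower (log2 ratio -1.80, -2.32 to -1.27), as was Il27 with 97 and 47 reads (-1.42, -1.92 to -0.93). Lif (12 Input and 16 RIP reads) and Csf1 (23 and 35) had ratios of -0.01 (-1.05 to 1.04) and 0.19 (-0.55 to 0.94). Il12a had 2 Input and 11 RIP reads (1.61, -0.22 to 3.43).

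In this WT pair 3 of 10 members were called higher and 2 lower, where 21.6% of genes were called higher and 25.4% lower, shares near those of the members. The median log2 ratio of the 10 members was 0.34, against -0.03 for all genes with 10 reads in the pair. The signs of the smaller ratios depended on the total used: on the library totals each ratio of this pair was higher by 0.51, which moved Tnf to 0.10, Il12b to 1.01 and Il27 to -0.91, the latter then short of 2-fold.

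The same comparison in the KO, which lacks the antigen, was taken as the background of the pull-down. That background was not free of Cpeb4 mRNA, which stood at 257 CPM (untreated) and 367 CPM (LPS) in the KO RIPs against 52.0 and 52.6 CPM in the KO Inputs. In the WT it stood at 836 and 770 CPM in the RIPs against 130 and 136 CPM in the Inputs. Cpeb4 mRNA thus lay above its Input in both genotypes, and what the KO RIPs captured was not tested. Il6 had 7 Input reads and 18 RIP reads there and was again called higher (log2 ratio 2.03, 0.84 to 3.23), with 96.1% of genes below it. Il6 was thus called above its Input in both genotypes, and whether CPEB4 has a part in its WT ratio was not tested. Csf3 had 23 and 3 reads and was again called lower (-1.80, -3.33 to -0.27). Tnf had 465 and 269 reads (-0.00, -0.22 to 0.21), and Il12b had 88 and 83 (0.70, 0.27 to 1.13). Il10 had 22 Input reads and 11 RIP reads (-0.15, -1.16 to 0.85), and Il27 had 60 and 24 (-0.50, -1.17 to 0.17). In this KO pair 1 of 10 members was called higher and 1 lower (7 had 10 reads), where 15.1% of 7861 genes were called higher and 9.04% lower. The Input of Il6 and the RIP of Csf3 held under 10 reads, so both calls passed the read minimum through the other library. On the library totals each ratio of this pair was lower by 0.68, which left Il6 above its Input and moved Il12b to 0.02 and Tnf to -0.69.

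**Figure D4:**
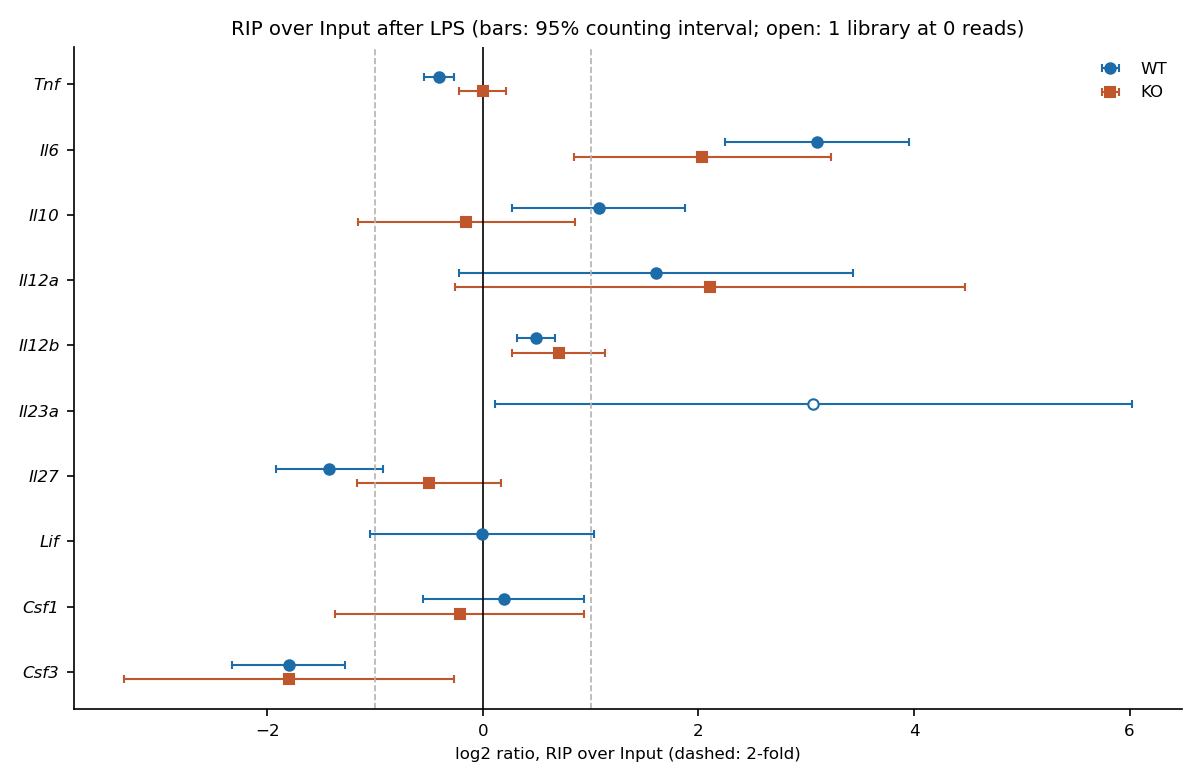
Log2 ratio of RIP over Input after LPS for each member in the WT (blue circles) and the KO (orange squares), with 95% counting intervals, on the 3′-UTR totals; the open symbol marks Il23a, with 0 Input reads, and dashed lines mark 2-fold. Il6 lies above its Input in both genotypes (3.10 and 2.03) and Csf3 below it in both (-1.80 each), while on the library totals all WT points would lie 0.51 higher and all KO points 0.68 lower.

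The third comparison set the WT against the KO with LPS, to separate recovery with the CPEB4 antibody from background. In the RIPs Il6, Il12b and Csf3 were called higher in the WT. Il6 had 134 reads (53.8 CPM) in the WT RIP and 18 reads (20.7 CPM) in the KO RIP, 2.48-fold higher (log2 ratio 1.31, 0.62 to 2.01). Il12b had 725 and 83 reads (291 and 95.2 CPM), 3.02-fold higher (1.60, 1.27 to 1.92). Csf3 had 39 and 3 reads (15.6 and 3.44 CPM), with a ratio of 1.81 (0.32 to 3.29). Tnf was at nearly the same level in both RIPs, with 818 and 269 reads (328 and 309 CPM) and a ratio of 0.08 (-0.11 to 0.28). Lif had 16 reads against 0 and Il23a had 10 against 0, which is 1.86-fold and 1.17-fold above a floor of 3 reads. Neither was called, as the fitted intervals ran from -0.34 to 5.48 and from -1.01 to 4.90. Il10 (46 and 11 reads), Csf1 (35 and 8), Il12a (11 and 4) and Il27 (47 and 24) had ratios of 0.45, 0.48, -0.25 and -0.57, each with an interval that included 0.

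Counted over the RIPs with LPS, 3 of 10 members were called higher and 0 lower, where 7.11% of 8310 genes were called higher and 14.9% lower. Csf3, with 3 KO reads, passed the read minimum only through its WT RIP, so its direction was fixed. The median log2 ratio of the members was 0.90, or 0.47 with Il23a and Lif set against a floor of 3 reads in the KO RIP. For all genes with 10 reads in the pair the median was -0.04. On the library totals every ratio of this pair was higher by 1.14, and 8 of 10 members were then called higher, with Il12a and Il27 as the exceptions.

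The Inputs of the same cells differed for several of the same mRNAs. Il12b had 391 reads (206 CPM, 187 to 228) in the WT Input and 88 (58.6 CPM, 47.5 to 72.2) in the KO Input, 3.49-fold higher (log2 ratio 1.80, 1.47 to 2.13). Csf3 had 105 reads (55.3 CPM) and 23 (15.3 CPM), 3.50-fold higher (1.81, 1.17 to 2.45). Lif had 12 reads and 1 read (2.36, 0.22 to 4.51). These 3 were called higher in the WT and 0 members lower, out of 8 with 10 reads, where 1.47% of 8151 genes were called higher and 1.5% lower. Lif passed the read minimum only through its WT Input, so its direction was fixed. Among genes with 10 reads in the pair, 99.6% had a lower ratio than Il12b and 99.6% a lower ratio than Csf3.

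The other members differed less in the Inputs. Tnf had 828 and 465 reads (436 and 310 CPM), a ratio of 0.49 (0.33 to 0.66), above 0 and below 2-fold. Il27 (97 and 60 reads), Il6 (11 and 7) and Csf1 (23 and 17) had ratios of 0.35, 0.25 and 0.08, with intervals that included 0. Il10 was the member with more reads in the KO Input, 22 against 16 (-0.77, -1.68 to 0.13). In lysates of whole cultures, fewer cells that express an mRNA and less of the mRNA per cell cannot be told apart. Each genotype also carried 1 number in the sample titles, so that genotype and whatever the number stands for cannot be told apart.

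Subtracting the WT over KO ratio of the Inputs from that of the RIPs gives the input-corrected ratio. It was called for 0 of 10 members in either direction (8 had 10 reads in both pairs), where 8.07% of 7575 genes were called higher and 15.7% lower. Il12b and Csf3, which were higher in the WT RIP, had input-corrected ratios of -0.21 (-0.67 to 0.26) and -0.00 (-1.61 to 1.61), since their Inputs differed by as much. Il10 and Il6 had the highest values, 1.23 (-0.06 to 2.51) and 1.06 (-0.40 to 2.53). Both intervals included 0, with 11 KO RIP reads for Il10 and 7 KO Input reads for Il6. With TMM or median-of-ratios scaling, with 0.1 reads added and on the library totals, Il10 was called higher. Csf1 and Lif, the other members with a deposited CPE prediction, had 0.41 (-0.97 to 1.78) and 0.21 (-3.41 to 3.82).

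Tnf and Il27, the abundant members without a CPE, had the lowest input-corrected ratios, -0.41 (-0.67 to -0.15) and -0.92 (-1.76 to -0.09), with intervals below 0 on the 3′-UTR totals, but with 0.79 and 0.28 on the library totals. Il10, the other member without a CPE, had the highest. On the library totals each input-corrected ratio was higher by 1.2, which leaves the order of the members as it was and puts all 8 above 0. Il6, Il10 and Csf1 were then called higher, at 2.26, 2.42 and 1.60. The share of 3′-UTR reads in the library total, which sets the difference between the scales, was 70.1% in the WT RIP and 31.8% in the KO RIP with LPS, and its part in these ratios was not tested beyond the change of scale.

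**Figure D5:**
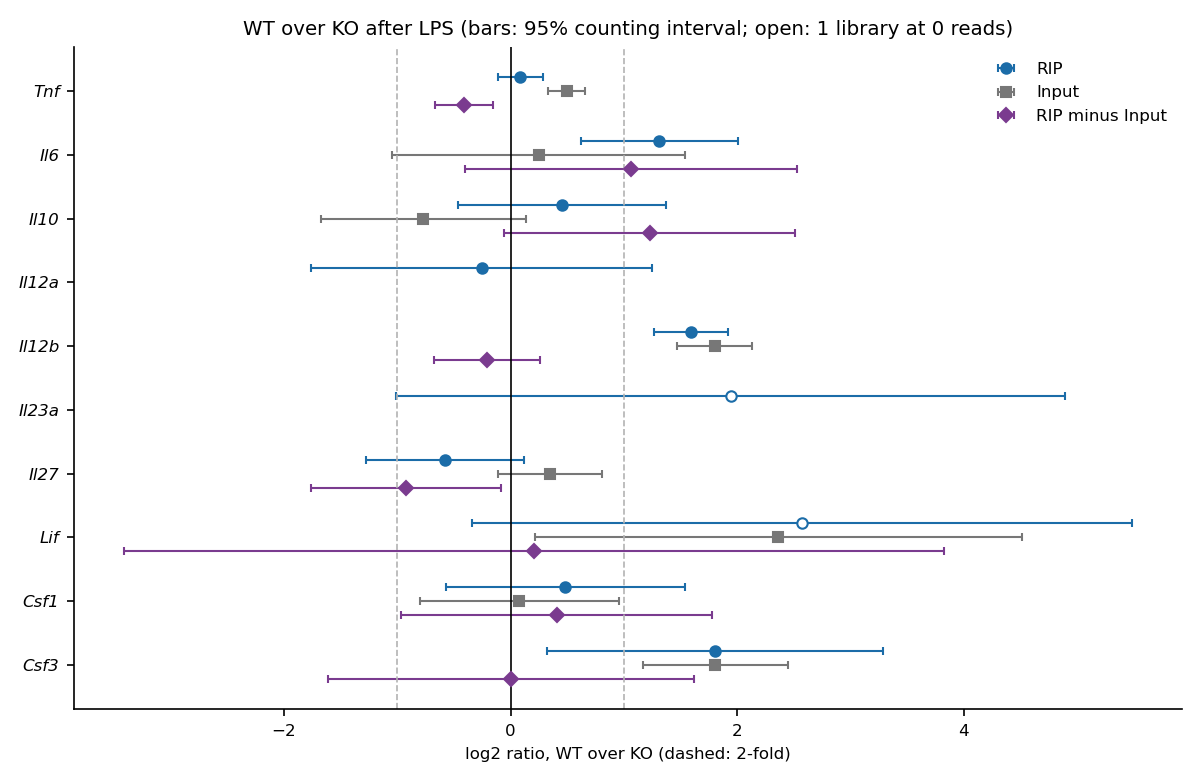
Log2 ratio of WT over KO after LPS for each member in the RIPs (blue circles), in the Inputs (grey squares) and as the RIP ratio minus the Input ratio (purple diamonds), with 95% counting intervals, on the 3′-UTR totals; open symbols mark Il23a and Lif, with 0 reads in the KO RIP, and dashed lines mark 2-fold. For Il12b and Csf3 the RIP and Input points lie at 1.60 and 1.80 and at 1.81 each, so the difference is near 0, and for Il6 and Il10 the RIP point lies to the right of the Input point, while on the library totals every purple point would lie 1.2 higher, which puts Tnf, Il12b and Il27 above 0.

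Without LPS few members had enough reads for a ratio. In the WT, RIP over Input was called for 0 of 10 members (4 had 10 reads), where 21.2% of 8359 genes were called higher and 19.8% lower. In the KO it was called for 0 of 10 (1 had 10 reads), where 15.5% of 7708 genes were called higher and 7.75% lower. Tnf had 60 RIP reads against 44 Input reads in the WT (log2 ratio -0.40, -0.96 to 0.15) and 10 against 48 in the KO (-0.65, -1.60 to 0.29). The WT ratio of Tnf with LPS was -0.41, and the difference between the treatments was not tested. Il10 had 9 RIP reads and 1 Input read in the WT (1.48, -0.71 to 3.67), and 0 and 6 in the KO.

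WT over KO in the untreated RIPs was called for 0 of 10 members (3 had 10 reads), where 5.95% of 8064 genes were called higher and 11.5% lower. In the untreated Inputs it was called for 0 of 10 (2 had 10 reads), where 1.22% of 7845 genes were called higher and 1.82% lower. The input-corrected ratio was called for 0 of 10 (2 had 10 reads), where 9.47% of 7201 genes were called higher and 11.8% lower. Tnf had an untreated Input ratio of 0.39 (-0.19 to 0.97) and a RIP ratio of 0.64 (-0.29 to 1.56). Csf1 had 12 WT and 0 KO reads in the RIPs, 1.12-fold above a floor of 3 reads, and was not called (fitted interval -1.07 to 4.80). At 467696 reads the untreated KO RIP allows up to 8.21 CPM for a member with 0 reads (upper Wilson limit, counting error only). The WT RIP levels of Il10 (5.40 CPM) and Csf1 (7.20 CPM) lie below that limit.

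The receptors and partner subunits of these cytokines were taken as a separate list of 14 genes, of which 13 had a 3′-UTR row. In the WT Inputs 3 were called higher and 3 lower with LPS out of 10 with enough reads, and the same 6 were called in the KO Inputs. Over all genes tested, the shares called higher and lower were 11.7% and 15.4% (WT Inputs), or 12.1% and 18.5% (KO Inputs). Ebi3, the partner of Il27 in IL-27, went from 35 to 294 WT reads, 4.01-fold higher (log2 interval 1.51 to 2.50), and from 45 to 259 KO reads (2.32, 1.87 to 2.77). Tnfrsf1b, a TNF receptor, rose by 1.37 (1.27 to 1.47) and 1.46 (1.37 to 1.55) on the log2 scale, and Csf3r, the G-CSF receptor, by 1.2 (0.66 to 1.73) and 1.31 (0.91 to 1.72). The genes called lower in both genotypes were receptor chains of the IL-6 family. Il6st, the gp130 chain that IL-6 and LIF share, had ratios of -2.14 (WT, -2.49 to -1.80) and -2.48 (KO, -2.83 to -2.14). Il6ra had -1.66 (-2.05 to -1.27) and -1.28 (-1.64 to -0.92), and Lifr had -3.09 (-4.37 to -1.80) and -3.04 (-4.10 to -1.97). The median of the tested receptors was -0.19 in the WT and -0.07 in the KO, against -0.08 and -0.18 for all genes.

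None of the 10 tested receptors was called between the genotypes in the LPS Inputs, where 1.47% of all genes tested were called higher and 1.5% lower. In the input-corrected ratio with LPS, 1 of 9 tested receptors was called higher in the WT and 3 lower, where 8.07% of all genes tested were called higher and 15.7% lower. Il6ra, the IL-6 receptor, had 138 reads in the WT RIP and 29 in the KO RIP (input-corrected ratio 1.13, 0.42 to 1.84). The 3 lower were Il10ra (-1.04, -1.32 to -0.75), Ebi3 (-1.10, -1.54 to -0.66) and Csf1r (-1.08, -1.43 to -0.74), and on the library totals these would lie 1.2 higher and thus above 0.

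Of 14 other secreted cytokines, 12 had a 3′-UTR row. With LPS 6 of 9 tested were called higher and 1 lower in the WT Inputs, and 6 of 9 higher and 0 lower in the KO Inputs, with medians of 1.78 and 3.21. Over all genes the shares were 11.7% higher and 15.4% lower (WT) and 12.1% and 18.5% (KO), with medians of -0.08 and -0.18. Some of the cytokines called, such as Il1a in the WT, passed the read minimum only through the LPS library. Il1rn, the IL-1 receptor antagonist, went from 109 to 2845 WT reads (3.66, 3.39 to 3.94) and from 110 to 2696 KO reads (4.42, 4.15 to 4.70). Il1a went from 0 to 750 reads in WT Inputs and from 1 to 206 in KO Inputs. Between the genotypes Il1a was the only 1 of 10 tested that was called in the LPS Inputs, where 1.47% of all genes tested were called higher and 1.5% lower. It had 750 (WT) and 206 (KO) reads (1.52, 1.30 to 1.74), beside 1.80 for Il12b and 1.81 for Csf3. In the LPS RIPs it had 1185 and 162 reads (1.35, 1.11 to 1.58).

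The course over the 8 libraries was compared between members and the 6667 genes with at least 100 reads, as a description. The points share libraries, and any gene that is low untreated and high with LPS will correlate with these members. Il12b was most like Il1a (Pearson r = 0.997 over 8 libraries), Tnf most like Cd40 (0.996), Il27 most like Lcn2 (0.993) and Il6 most like Serpinb2 (0.996). An r over 0.9 was reached by 5.30% of the genes for Il12b, 5.73% for Tnf, 4.49% for Il27 and 2.79% for Il6. Csf3 was most like Pilra (0.988), Il10 most like 9530068E07Rik (0.982) and Csf1 most like Dnajb6 (0.989), with 2.07%, 1.2% and 0.690% of the genes over 0.9. Il12a, Il23a and Lif had too few reads for this comparison.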

How the data were processed

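RIP and Input libraries of WT and KO BMDMs were sequenced after rRNA depletion of the Inputs. According to the study's methods and the submitters' notes, reads were aligned by the authors to mm10 with Bowtie2 (2.2.2), removed duplicates, called peaks with MACS (1.4.2) and deposited read counts over Ensembl 3′-UTR regions, 1 column per library with lanes 7 and 8 added. The counts were identical in the 4 deposited tables. The deposited RPKM was used only to derive the library totals. Deposited p-values, fold changes and peak scores of the authors' comparisons were not used. Whether counting used strand is not given in the sources used here. Of 31117 rows, 495 without a gene symbol (0.902% to 1.04% of the reads of a library) were left out.

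The members and gene lists were chosen with earlier results of these data known. The named genes are all 10 members, called genes of the receptor and cytokine lists, and the genes most like a member. CPM and log2 ratios were computed with Python (3.11.15) on the 3′-UTR totals after adding 1 read, with 95% normal intervals from the counts and Wilson intervals for levels. They cover counting error only, and PCR copies are not independent molecules. Pairs in which neither library had over 3 reads got no ratio. With 1 library per group no p-value is given, and calls rest on the interval rule. A chi-square test with the p and fold thresholds of the study was run as an alternative, which applies its criteria only in part, without the peak score. The computation was tested on simulated data. The alternatives were library totals, TMM (edgeR 4.0.16) or median-of-ratios scaling, 0.1 reads added, no minimum or at least 50 reads, a 1.5-fold threshold, the longest region per gene, and the chi-square test. Sequences were read from the RefSeq GRCm38.p6 assembly with pysam (0.24.0), whose coordinates are those of mm10.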

Additional observations from a re-analysis of the deposited data

How the results depend on the processing

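No paired analysis was possible because each genotype, treatment and assay had 1 library, with its lanes added in the deposited counts, and for the same reason no replicate could be left out. Counts of members called were compared over the 15 comparisons. On library totals, RIP over Input with LPS had 5 members higher and 1 lower in the WT (3 and 2 on the 3′-UTR totals) and 2 lower in the KO (1). RIP over Input in the untreated KO had 1 lower, Tnf (0). WT over KO was called higher for 1 member in the untreated RIPs, Tnf (0), for 8 in the LPS RIPs (3) and for 3 in the input-corrected ratio with LPS (0). TMM, median-of-ratios scaling and 0.1 reads added each gave 1 member higher in that ratio, Il10. With 0.1 reads added the LPS change of the RIPs had 5 members higher in the WT (8) and 2 in the KO (4). With at least 50 reads it had 5 and 2, the KO Inputs had 3 higher with LPS (6), and RIP over Input in the LPS KO had 0 higher and 0 lower (1 and 1), by construction as fewer members had enough reads. With a 1.5-fold threshold RIP over Input in the LPS KO had 2 members higher (1), and the input-corrected ratio with LPS had 1 lower, Il27 (0). The cause of the other changes was not tested. The longest region, no read minimum and the chi-square alternative moved no count by over 1.5 times, and no called member turned its direction under any alternative. Depth limits Il12a, Il23a, Lif, Csf1 and Il10, with at most 46 reads in any library. It also limits the ratios of Il6, with 11 (WT) and 7 (KO) Input reads after LPS, and of Csf3, with 3 KO RIP reads after LPS.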
